A study of Mus musculus with 6 samples.

Results

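The clock output factors are 8 transcription factor genes, Dbp, Tef, Hlf, Nfil3, Nr1d1, Nr1d2, Bhlhe40 and Bhlhe41, taken by gene symbol out of 18193 genes with a probe set of a single symbol. All 8 had at least 1 probe set, 14 in all, and the probe set of highest mean signal stood for each gene. Of the 8 genes, 7 were bright enough to be tested, and Bhlhe41 was not.

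In mammals the circadian clock is a loop in which CLOCK and BMAL1 switch on genes through E-box elements, among them the Per and Cry genes, whose products then shut the pair off. The PAR bZIP proteins DBP, TEF and HLF carry that rhythm to other genes by activating D-box elements, and NFIL3 (E4BP4) represses the same elements. The REV-ERB receptors, encoded by Nr1d1 and Nr1d2, repress Bmal1 and Nfil3 through a REV-ERB/ROR element, and the DEC proteins, encoded by Bhlhe40 and Bhlhe41, bind E-boxes and repress. In mouse tissues, heart included, Dbp, Tef, Hlf and the REV-ERB genes peak at times of day when Bmal1 and Nfil3 are low.

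Heart RNA of male mice aged 2 months was hybridised to 6 Affymetrix arrays, 2 for each of 3 groups. The RKIP hearts are from a single line of transgenic mice that express RKIP, an inhibitor of RAF and of receptor kinases, in the myocardium from the alpha-MHC promoter. The GRK-Inh hearts are from a single line of transgenic mice that carry in the myocardium a peptide that inhibits G-protein-coupled receptor kinases, and the labels do not name its promoter. The B6 control hearts are from wild-type mice, and all groups are labelled with a B6 background. The labels used here give no time of day for the collection of hearts, and nothing in them says that the 2 arrays of a group are separate animals, so a p-value here measures the spread between samples, possibly only a technical one.

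Signals are the authors' linear intensities, and median signals per array lay between 50.3 and 55.0. The 6 cardiomyocyte markers were all tested, with summed signals of 170679 to 172964 in RKIP, 168065 to 168968 in GRK-Inh and 171550 to 178963 in B6 control hearts. The skeletal muscle markers Myh1, Myh4 and Actn3 and the liver markers Alb and Apoa1 lay below the filter. The third liver marker, Ttr, passed the filter and was called in no comparison. Its mean signal was 93.3 ± 4.20 in RKIP, 42.6 ± 8.40 in GRK-Inh and 57.2 ± 0.583 in B6 control hearts. The 3' to 5' ratio of the actin control was 2.92 and 2.96 in RKIP, at most 3.03 in GRK-Inh and 3.25 and 3.11 in B6 control hearts. A log2 fold change is a difference of log2(signal + 50), given ± SE from the limma model over all 6 arrays. In bulk RNA fewer cells of a type and less RNA per cell cannot be told apart. Called genes have an adjusted p under 0.05 (Benjamini-Hochberg, over the 11254 genes tested), and mean signals are given ± SD with n = 2 per group.

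**Figure D1:**
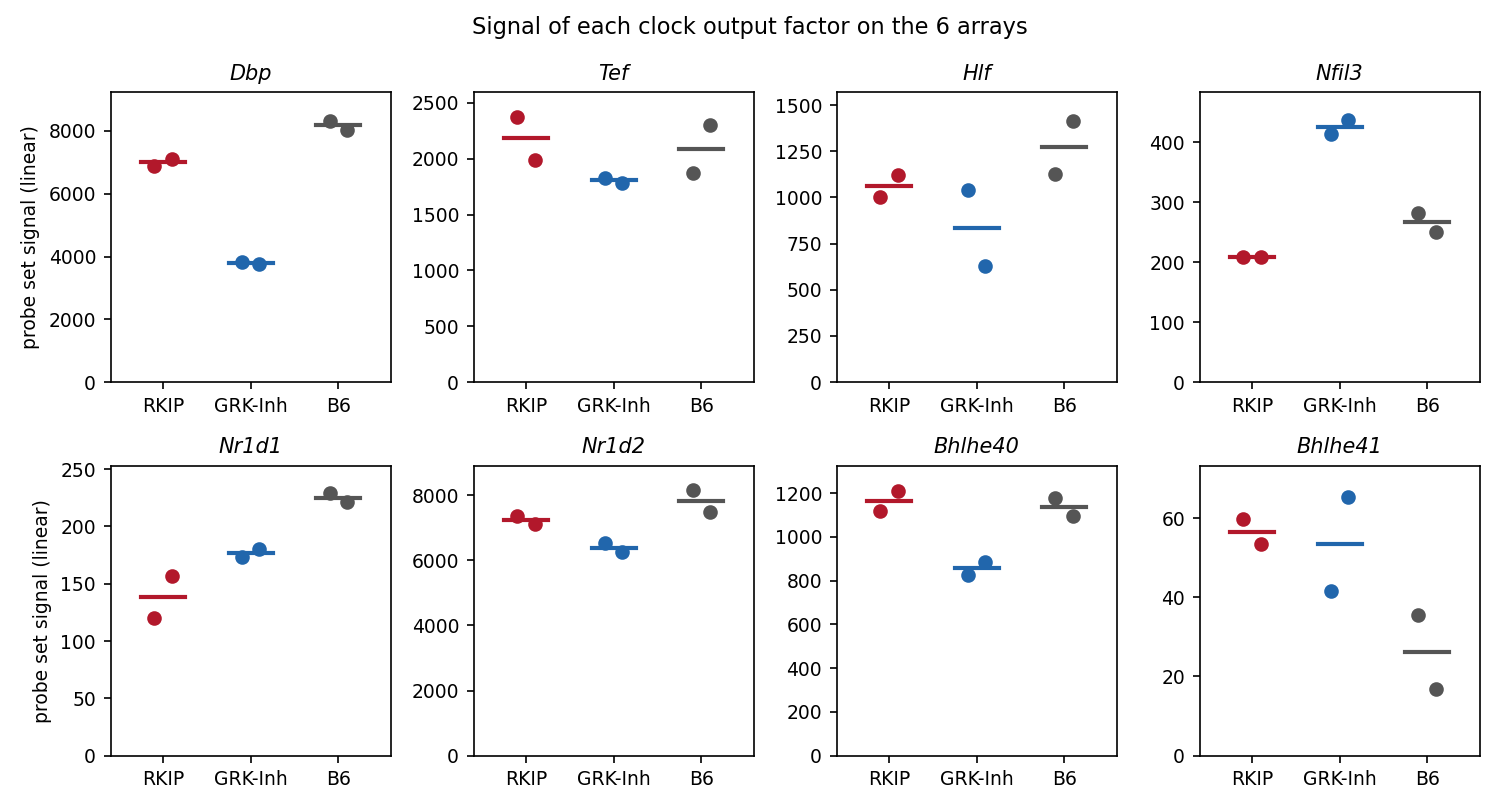
Linear probe set signal (vertical axes, each from 0) of the main probe set of each gene, with 1 point per array and a bar at the group mean, for RKIP, GRK-Inh and B6 control hearts. The GRK-Inh arrays lie lowest for Dbp, at 3837 and 3758, and highest for Nfil3, at 413 and 436.

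Dbp, whose product activates D-box genes, gave signals of 6884 and 7107 in RKIP, 3837 and 3758 in GRK-Inh and 8327 and 8041 in B6 control hearts. The arrays of the 3 groups did not overlap, and the GRK-Inh arrays were the lowest. Dbp fell in GRK-Inh hearts to a mean of 3797 ± 55.5, against 8184 ± 202 in B6 control hearts, which is 46.4% of the control level (log2 fold change -1.10 ± 0.043, adjusted p = 8.35e-08). It ranked number 22 by size of fall among the 11254 genes tested. In RKIP hearts the fall was smaller, with a mean of 6996 ± 158 or 85.5% of the control level (-0.22 ± 0.043, adjusted p = 0.00738). That call was lost without RKIP array 1 (-0.20, adjusted p = 0.0588), without B6 control array 1 (-0.20, adjusted p = 0.0552) and with an untrended variance (adjusted p = 0.141). Between the lines Dbp was higher in RKIP than in GRK-Inh hearts (0.87 ± 0.043, adjusted p = 6.8e-07). The other probe set of Dbp gave 1784 and 1846 in RKIP, 834 and 861 in GRK-Inh and 2257 and 2055 in B6 control hearts. Tested among all probe sets, it fell in GRK-Inh hearts (-1.30 ± 0.062, adjusted p = 4.5e-05) and did not pass between RKIP and control hearts (-0.24 ± 0.062, adjusted p = 0.113).

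Tef, the second PAR bZIP gene, gave 2374 and 1990 in RKIP, 1827 and 1784 in GRK-Inh and 1875 and 2297 in B6 control hearts. The RKIP and control arrays overlapped, and the GRK-Inh arrays lay just below both. Tef passed in none of the 3 comparisons. The 95% interval of its log2 fold change ran from -0.15 to 0.28 in RKIP against control hearts, from -0.41 to 0.020 in GRK-Inh against control hearts and from 0.045 to 0.48 between RKIP and GRK-Inh hearts. In GRK-Inh against control hearts the value was -0.34 without B6 control array 1 and -0.053 without B6 control array 2, and neither passed. Between the lines it was 0.14 without RKIP array 1. Another of its probe sets gave 64.0 and 98.8 in GRK-Inh and 146 and 179 in B6 control hearts, without passing (-0.70 ± 0.18, adjusted p = 0.0965 among all probe sets). The main probe set had a value of -0.20 ± 0.098.

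Hlf, the third PAR bZIP gene, gave 1003 and 1120 in RKIP, 1038 and 630 in GRK-Inh and 1129 and 1415 in B6 control hearts. The GRK-Inh arrays lay below both control arrays but far from each other, with a gap of 0.68 on the log2 scale, against a median gap of 0.10 over the genes tested. Hlf fell in GRK-Inh hearts (-0.61 ± 0.18, adjusted p = 0.0459) with little margin. Without GRK-Inh array 2 the value was -0.27 (adjusted p = 0.23), and without GRK-Inh array 1 it was -0.95 (adjusted p = 0.00148). The call was also lost without B6 control array 1 (-0.77, adjusted p = 0.0796) and without B6 control array 2 (-0.45, adjusted p = 0.273), and with no filter (adjusted p = 0.13), an untrended variance (adjusted p = 0.186), arrays shifted to one median (adjusted p = 0.0598), robust moderation (adjusted p = 0.0797), a replicate block (adjusted p = 0.0606) or all probe sets entered (adjusted p = 0.184). The other probe set of Hlf had a near-equal value with less spread within the GRK-Inh group (361 and 351, against 668 and 487 in B6 control hearts) and did not pass among all probe sets (-0.61 ± 0.13, adjusted p = 0.0505). Hlf did not pass in RKIP against control hearts (-0.24 ± 0.18, adjusted p = 0.441) or between RKIP and GRK-Inh hearts (0.37 ± 0.18, adjusted p = 0.249). The difference between the lines passed without GRK-Inh array 1 (0.71, adjusted p = 0.0128) and was near 0 without GRK-Inh array 2 (0.029, adjusted p = 0.937), so it rests on which of these arrays is used. The value in RKIP against control hearts was -0.40 without B6 control array 1 and -0.087 without B6 control array 2.

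Nfil3, the repressor at D-box elements, gave 208.0 and 208.4 in RKIP, 413 and 436 in GRK-Inh and 283 and 250.1 in B6 control hearts. Its GRK-Inh arrays were the highest and its RKIP arrays the lowest, with no overlap between groups. Nfil3 rose in GRK-Inh hearts to 425 ± 16.6, against 266 ± 23.0 in B6 control hearts (0.59 ± 0.11, adjusted p = 0.0051), so within this group the activator Dbp was lower and the repressor Nfil3 higher than in controls. In RKIP hearts it averaged 208 ± 0.232 and did not pass against controls (-0.29 ± 0.11, 95% interval -0.53 to -0.048, adjusted p = 0.127). Between the lines Nfil3 was lower in RKIP than in GRK-Inh hearts, at 49.0% of the GRK-Inh mean (-0.88 ± 0.11, adjusted p = 0.000724). Nfil3 had a single probe set.

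The promoter windows of Dbp and Nfil3, the members with the largest fall and the only rise against controls, are printed here as the 250 bases before a RefSeq transcript start on GRCm38.p6. The Dbp window is chr7:45704997-45705246 on the plus strand, and the Nfil3 window is chr13:52981040-52981289 on the minus strand. Capitals mark the single motif found in them, a REV-ERB/ROR element in Nfil3 that starts at base -12 and reads TAGGTCA on the opposite strand.
Dbp: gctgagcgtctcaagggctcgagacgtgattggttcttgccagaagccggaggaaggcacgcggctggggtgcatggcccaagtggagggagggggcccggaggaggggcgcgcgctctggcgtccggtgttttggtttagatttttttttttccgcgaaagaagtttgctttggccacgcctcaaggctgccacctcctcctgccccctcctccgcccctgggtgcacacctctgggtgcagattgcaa
Nfil3: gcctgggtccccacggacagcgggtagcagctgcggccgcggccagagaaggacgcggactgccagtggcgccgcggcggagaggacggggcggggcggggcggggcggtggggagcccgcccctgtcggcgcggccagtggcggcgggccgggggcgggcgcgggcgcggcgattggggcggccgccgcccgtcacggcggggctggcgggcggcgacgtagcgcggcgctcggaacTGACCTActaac

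Windows of 300 bases, 250 before a start and 50 after it, were in the RefSeq table for 7 of the 8 genes, all but Bhlhe40, 8 windows in all because Tef has 2 starts. They were searched on both strands for the E-box CACGTG, the D-box TTANGTAA, the REV-ERB/ROR element as TAGGTCA or TGGGTCA, and the cAMP element TGACGTCA. An E-box lay in 3 of the 8 windows (both of Tef and that of Bhlhe41), against 7.15% of all 32851 windows. The REV-ERB/ROR element lay in 1 window (6.45% of all), the cAMP element in 1, that of Hlf (1.79% of all), and the D-box in 0 (2.32% of all). The matches other than that in Nfil3 are shown with 15 bases on each side and the motif in capitals. They lie at chr15:81802531-81802566 and chr15:81811261-81811296 (Tef, plus strand), chr6:145865553-145865588 (Bhlhe41, minus strand) and chr11:90390904-90390941 (Hlf, minus strand).
Tef start 1: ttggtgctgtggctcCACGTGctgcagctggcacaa
Tef start 2: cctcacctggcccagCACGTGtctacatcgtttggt
Bhlhe41: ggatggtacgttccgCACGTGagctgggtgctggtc
Hlf: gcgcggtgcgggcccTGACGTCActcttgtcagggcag
A match is a stretch of letters and not a measured binding site. Both Tef windows carried the E-box letters, and the Dbp window carried none of the 4 motifs. Bases outside these windows were not searched, so a motif absent here may lie elsewhere in the gene.

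Nr1d1, the gene of REV-ERB-alpha, gave 120 and 157 in RKIP, 173 and 181 in GRK-Inh and 229 and 221 in B6 control hearts. Both transgenic groups lay below the control arrays, and the RKIP arrays were the lowest. Nr1d1 fell in RKIP hearts to 139 ± 25.9, against 225 ± 5.50 in B6 control hearts (-0.55 ± 0.14, adjusted p = 0.0301). That call was lost without RKIP array 1 (-0.41, adjusted p = 0.181), without B6 control array 1 (-0.53, adjusted p = 0.137) and without B6 control array 2 (-0.57, adjusted p = 0.113), and with no filter (adjusted p = 0.0844), an untrended variance (adjusted p = 0.0657) or all probe sets entered (adjusted p = 0.104). With an offset of 200 in place of 50 the value was -0.33. In GRK-Inh hearts its mean was 177 ± 5.06 and it did not pass (-0.28 ± 0.14, 95% interval -0.59 to 0.030, adjusted p = 0.222). Between RKIP and GRK-Inh hearts it did not pass either (-0.27 ± 0.14, adjusted p = 0.276), so the lines were not shown to differ in Nr1d1.

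Nr1d2, the gene of REV-ERB-beta, gave 7368 and 7112 in RKIP, 6533 and 6254 in GRK-Inh and 8160 and 7491 in B6 control hearts. The GRK-Inh arrays were the lowest, and neither transgenic group overlapped the controls. Nr1d2 fell in GRK-Inh hearts to 6393 ± 197, against 7826 ± 473 in B6 control hearts, which is 81.7% of the control level (-0.29 ± 0.050, adjusted p = 0.00307). The call was lost with an untrended variance (adjusted p = 0.092). In RKIP hearts it did not pass (-0.11 ± 0.050, adjusted p = 0.195). Between RKIP and GRK-Inh hearts the adjusted p was 0.0504 (0.18 ± 0.050), and 8 of 17 alternatives put it under the threshold, with adjusted p of 0.0294 to 0.272 over all 17. The other probe set of Nr1d2 had a similar value in GRK-Inh against control hearts without passing (-0.28 ± 0.16, adjusted p = 0.49 among all probe sets).

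Bhlhe40, the gene of DEC1, gave 1118 and 1209 in RKIP, 826 and 887 in GRK-Inh and 1176 and 1094 in B6 control hearts. The RKIP and control arrays overlapped, and both GRK-Inh arrays lay below them. Bhlhe40 fell in GRK-Inh hearts to 857 ± 42.7, against 1135 ± 57.9 in B6 control hearts (-0.39 ± 0.075, adjusted p = 0.00623). It was higher in RKIP than in GRK-Inh hearts (0.42 ± 0.075, adjusted p = 0.00625) and did not pass between RKIP and control hearts (0.034 ± 0.075, 95% interval -0.13 to 0.20). The call against controls was lost without GRK-Inh array 1 (-0.34, adjusted p = 0.0531), without B6 control array 1 (-0.34, adjusted p = 0.06) and with an untrended variance (adjusted p = 0.0553). The call between the lines was lost without RKIP array 2 (0.37, adjusted p = 0.0533), without GRK-Inh array 1 (0.37, adjusted p = 0.0542) and with that untrended variance (adjusted p = 0.0686).

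Bhlhe41, the gene of DEC2, was dim, at 59.7 and 53.5 in RKIP, 41.6 and 65.4 in GRK-Inh and 35.6 and 16.8 in B6 control hearts. Its mean log2 value of 6.55 lay below the filter of 6.65, a signal of about 50.2, and its other probe set gave signals of 2.19 to 30.6. Its main probe set did not pass in GRK-Inh against control hearts when all probe sets were tested (0.44 ± 0.22, adjusted p = 0.395). Bhlhe41 is left out of the counts below for that reason.

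**Figure D2:**
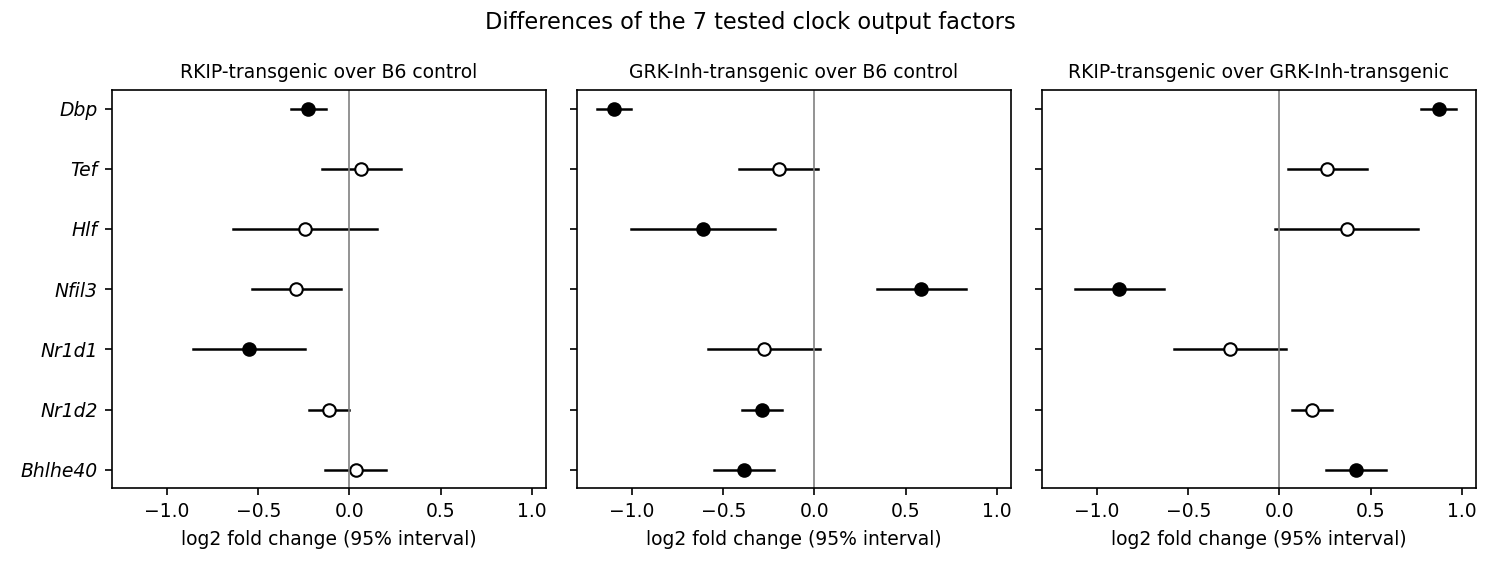
Log2 fold changes (horizontal axis) of the 7 tested genes in the 3 comparisons, with 95% intervals from the limma model; filled points passed an adjusted p under 0.05 and open points did not. Dbp lies at -1.10 and Nfil3 at 0.59 in GRK-Inh over B6 control hearts, and no interval in RKIP over B6 control hearts lies wholly above 0.

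In GRK-Inh against control hearts 1 of the 7 tested clock output factors rose (Nfil3) and 4 fell (Dbp, Hlf, Nr1d2 and Bhlhe40), while 13.1% of all tested genes were called, 5.86% as higher and 7.27% as lower. The median log2 fold change of the 7 was -0.29, against -0.031 over all tested genes. In RKIP against control hearts 0 members rose and 2 fell (Dbp and Nr1d1), while 10.8% of all tested genes were called, 5.32% as higher and 5.51% as lower. Their median was -0.22, against -0.017 over all tested genes. Between RKIP and GRK-Inh hearts 2 members were higher (Dbp and Bhlhe40) and 1 was lower (Nfil3), while 8.82% of all tested genes were called, 4.47% as higher and 4.35% as lower. The median of the members was 0.26, against 0.021 over all tested genes. Both comparisons with controls share the B6 control arrays, so their values are not independent. The members were chosen with earlier results of these data known, so their counts beside these shares are no independent test. With an untrended variance, 0 members were called in RKIP and 2 in GRK-Inh against control hearts.

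**Figure D3:**
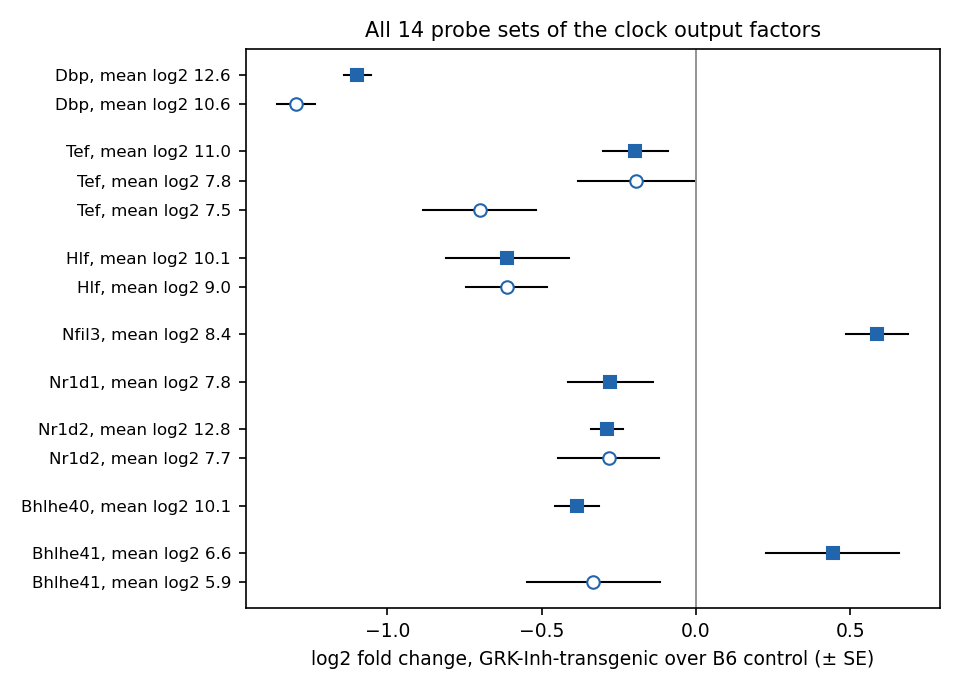
Log2 fold change ± SE (horizontal axis) of GRK-Inh over B6 control hearts for all 14 probe sets, labelled by gene and mean log2 level; filled squares are the main probe sets and open circles the others. The probe sets of Dbp (-1.10 and -1.30), Hlf (-0.61 and -0.61) and Nr1d2 (-0.29 and -0.28) lie on the same side of 0, those of Tef range from -0.19 to -0.70, and those of Bhlhe41 lie on both sides.

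The core clock genes that drive or answer these factors were described from a list of 18, of which 16 had a probe set and 12 were tested. Npas2, Arntl2, Rorb and Fbxl21 lay below the filter. Arntl, which encodes BMAL1, gave 64.8 and 84.6 in RKIP, 147 and 139 in GRK-Inh and 37.9 and 36.9 in B6 control hearts. It rose in GRK-Inh against control hearts (1.14 ± 0.17, adjusted p = 0.00129), and its value ranged from 0.53 with an offset of 200 to 1.57 with an offset of 16. Its control signals lay below the filter level, so Arntl passed the filter through the groups where it was brighter. It did not pass in RKIP against control hearts (0.51 ± 0.17, adjusted p = 0.087). Between RKIP and GRK-Inh hearts it was called lower (-0.63 ± 0.17, adjusted p = 0.0439), a call lost under 10 of 16 alternatives, among them the omission of any 1 of the 6 arrays (-0.75 to -0.52, adjusted p 0.0575 to 0.214).

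Per3, a clock gene with D-box elements in its promoter, gave 451 and 491 in RKIP, 272 and 241 in GRK-Inh and 600.4 and 573 in B6 control hearts. The GRK-Inh arrays were the lowest, in the same order of groups as Dbp. Per3 fell in GRK-Inh hearts (-1.06 ± 0.10, adjusted p = 6.3e-05), was higher in RKIP than in GRK-Inh hearts (0.77 ± 0.10, adjusted p = 0.000901) and did not pass between RKIP and control hearts (-0.29 ± 0.10, adjusted p = 0.0958). The same motifs were searched in the windows of Per1 and Arntl, and neither gene had a D-box there. The first Per1 window held an E-box at base -166, and the second Arntl window a REV-ERB/ROR element at base +31. The Per3 window held 2 D-boxes, which start at bases -205 and -158 and are in capitals in the stretch chr4:151044801-151044885 on the minus strand.
Per3: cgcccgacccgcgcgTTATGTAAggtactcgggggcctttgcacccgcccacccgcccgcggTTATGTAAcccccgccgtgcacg

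Of the 11 core clock genes tested apart from Arntl, 2 rose and 1 fell in GRK-Inh against control hearts. Those that rose were Clock (0.43 ± 0.093, adjusted p = 0.0117) and Csnk1d (0.24 ± 0.060, adjusted p = 0.0228), a kinase gene whose product marks PER proteins, and Per3 fell. The call of Clock was lost without GRK-Inh array 2 (adjusted p = 0.0893) and without B6 control array 2 (adjusted p = 0.081). The call of Csnk1d was lost without either GRK-Inh array (adjusted p 0.0742 and 0.123) and without B6 control array 2 (adjusted p = 0.131). In RKIP against control hearts 0 of the 12 were called. Per1, Per2, Cry1, Cry2, Ciart, Rora, Csnk1e and Timeless passed in none of the 3 comparisons. For Cry2 this rested on 1 control array, since the B6 control arrays gave 242 and 118. Without B6 control array 1 Cry2 passed in RKIP (0.80, adjusted p = 0.0224) and in GRK-Inh against control hearts (0.65, adjusted p = 0.0359), and without B6 control array 2 the values were -0.0030 in RKIP and -0.14 in GRK-Inh hearts. Per1 gave 402 and 337 in RKIP, 317 and 493 in GRK-Inh and 385 and 415 in B6 control hearts, so the GRK-Inh arrays spanned those of the other groups.

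**Figure D4:**
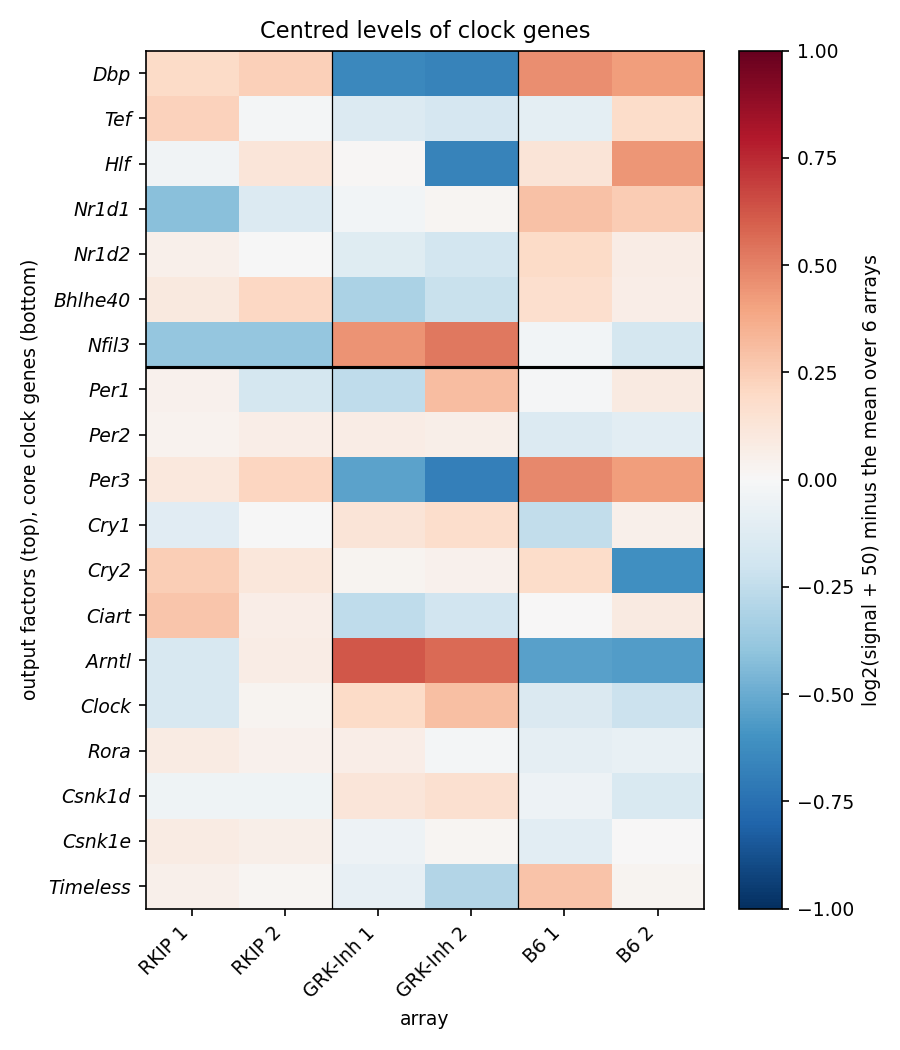
Log2(signal + 50) of the 7 tested output factors (above the line) and the 12 tested core clock genes (below it), each minus its own mean over the 6 arrays, by array (columns, by group). Dbp and Per3 are low and Nfil3 and Arntl high on both GRK-Inh arrays, and Hlf is low on GRK-Inh array 2 only.

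The lists of related genes that follow share members, such as Per1, Per3, Nampt and Dusp1. The lists were chosen with earlier results of these data known. Their counts stand beside the share of all tested genes called, which is no independent test of the lists. That share was 10.8% in RKIP and 13.1% in GRK-Inh against control hearts, and 8.82% between the lines. An untrended variance was tried over these lists and the core clock list together. With it, 5 of the 14 called list genes lost the call in RKIP against control hearts (Egln3, Hk2, Klf15, Pdk1 and Ppara). In GRK-Inh against control hearts 10 of 27 lost it (Alas1, Bnip3, Clock, Csnk1d, Klf15, Mt2, Pdk1, Slc2a1, Tsc22d3 and Vegfa). Between the lines 5 of 19 lost it (Bnip3, Egln3, Slc2a1, Tsc22d3 and Usp2). Of 7 listed genes with a known REV-ERB/ROR element, 3 were tested (Arntl, Clock and Cry1). Beside Arntl, which passed the filter through the groups where it was brighter, Clock was called in GRK-Inh against control hearts, and 0 of the 3 were called in RKIP against control hearts. Of the 8 E-box genes in the phase of Dbp, 1 rose in RKIP against control hearts, and 1 rose and 1 fell (Per3) in GRK-Inh against control hearts. The gene that rose in both was Nampt, the gene of an enzyme of NAD synthesis (0.73 ± 0.045, adjusted p = 3.63e-06 in RKIP, and 0.59 ± 0.045, adjusted p = 1.23e-05 in GRK-Inh). Usp2, the gene of a deubiquitinase, was higher in RKIP than in GRK-Inh hearts (0.20 ± 0.047, adjusted p = 0.0236), a call lost without any 1 of the 4 arrays of those groups (adjusted p 0.0724 to 0.141).

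Of 12 genes listed as targets of the PAR bZIP proteins 7 were tested, of which 1 rose and 1 fell in RKIP, and 1 rose and 2 fell in GRK-Inh against control hearts. Alas1, the gene of the first enzyme of haem synthesis, fell in both (-0.52 ± 0.060, adjusted p = 0.000313 in RKIP, and -0.33 ± 0.060, adjusted p = 0.00407 in GRK-Inh, or 0.0701 with an untrended variance). Ppara, the gene of a receptor that governs fatty acid oxidation, rose in both (0.38 ± 0.077, adjusted p = 0.0101, and 0.55 ± 0.077, adjusted p = 0.000886), and Per3 was the other gene that fell. The call of Ppara in RKIP hearts was lost without RKIP array 2 (adjusted p = 0.0544) and without B6 control array 1 (adjusted p = 0.0745).

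Of the 6 KLF and clock-linked genes, 2 rose and 1 fell against controls in RKIP and likewise in GRK-Inh hearts. Beside Nampt, Klf15 rose (0.47 ± 0.094, adjusted p = 0.00951 in RKIP, and 0.36 ± 0.094, adjusted p = 0.0302 in GRK-Inh) and Klf10 fell (-0.57 ± 0.080, adjusted p = 0.00127, and -0.65 ± 0.080, adjusted p = 0.000394). KLF15 is a clock-controlled regulator of heart metabolism and ion channels. The call of Klf15 in RKIP hearts was lost without RKIP array 1 (adjusted p = 0.0525) and without B6 control array 1 (adjusted p = 0.0725). Its call in GRK-Inh hearts was lost without GRK-Inh array 1 (adjusted p = 0.126), array 2 (adjusted p = 0.104) and without B6 control array 1 (adjusted p = 0.175).

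Lists of genes that respond to signals known to reach Nfil3, Bhlhe40 or the Per genes were counted too. These lists were also chosen with earlier results of these data known, so their counts are descriptions only. Of 12 tested genes induced by cAMP and activity, 7 rose and 0 fell in GRK-Inh against control hearts, where the median was 0.67. They were Fos, Egr1, Nr4a1, Nr4a3, Atf3, Ier2 and Dusp1, with log2 fold changes of 0.59 (Ier2) to 2.70 (Fos). The B6 control signals were low for Fos (72.9 and 108) and Nr4a3 (34.9 and 68.9), so the sizes of these rises are uncertain. Over the alternatives Fos ranged from 1.87 to 3.06 and Nr4a3 from 0.99 to 2.26, and both kept the call. In RKIP against control hearts 1 rose (Nr4a1, 1.00) and 2 fell (Egr1, -1.07, and Dusp1, -0.61). Between RKIP and GRK-Inh hearts 0 were higher and 7 were lower, namely Fos, Egr1, Nr4a2, Nr4a3, Atf3, Ier2 and Dusp1, and the call of Nr4a2 (-0.62) was lost without any 1 of the 4 arrays of those groups (adjusted p 0.0792 to 0.126).

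Of 10 genes induced by glucocorticoids, 8 rose and 0 fell in GRK-Inh against control hearts, where the median was 0.66. They were Fkbp5, Tsc22d3, Zbtb16, Sgk1, Cdkn1a, Ddit4, Mt2 and Dusp1, from 0.24 (Mt2) to 1.79 (Zbtb16). The call of Mt2 was lost without any 1 of the 4 arrays of those groups (adjusted p 0.0554 to 0.17), and that of Fkbp5 without GRK-Inh array 2 (adjusted p = 0.0582) or B6 control array 1 (adjusted p = 0.0568). In RKIP against control hearts 0 rose and 2 fell (Mt2, -0.53, and Dusp1), and between RKIP and GRK-Inh hearts 0 were higher and 7 lower, all of the 8 but Fkbp5. The part of the signals that act on these lists in the values of the clock output factors was not tested.

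Of 9 tested genes induced by hypoxia, a signal that also induces Bhlhe40, 4 rose and 1 fell in RKIP and 4 rose and 0 fell in GRK-Inh against control hearts. Slc2a1 (0.65 and 0.32), Pdk1 (0.27 and 0.32) and Bnip3 (0.65 and 0.32) rose in RKIP and in GRK-Inh hearts, Hk2 (0.16) rose in RKIP and Vegfa (0.36) in GRK-Inh hearts, and Egln3 fell in RKIP hearts (-0.49). Between RKIP and GRK-Inh hearts Slc2a1 and Bnip3 were higher and Egln3 was lower. Of these, the call of Hk2 was lost without any 1 of the 4 RKIP and control arrays (adjusted p 0.0639 to 0.149), and that of Pdk1 in RKIP hearts without RKIP array 2 or either control array (adjusted p 0.0526 to 0.0724). The calls of Vegfa and Slc2a1 in GRK-Inh hearts were lost without either GRK-Inh array and without B6 control array 2 (Vegfa, adjusted p 0.0909 to 0.142) or array 1 (Slc2a1, adjusted p 0.0644 to 0.133). Between the lines the call of Slc2a1 was lost without RKIP array 1 or either GRK-Inh array (adjusted p 0.0803 to 0.172), and that of Egln3 without GRK-Inh array 1 (adjusted p = 0.0539).

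Markers of other heart cells moved with the groups as well. The summed signal of 6 fibroblast markers was 30463 to 30669 in RKIP, 28217 to 28478 in GRK-Inh and 38527 to 41080 in B6 control hearts, and 4 of 6 in RKIP and 5 of 6 in GRK-Inh hearts fell against controls. The sum of 5 smooth muscle and pericyte markers was 22839 to 23134 in RKIP, 23573 to 23824 in GRK-Inh and 27524 to 28329 in B6 control hearts, with 5 of 5 lower in RKIP and 3 of 5 lower in GRK-Inh hearts. The sum of 4 macrophage markers was 5528 to 5617 in RKIP, 4800 to 4812 in GRK-Inh and 6212 to 6469 in B6 control hearts, with 1 of 4 lower in RKIP and 2 of 4 lower in GRK-Inh hearts. The sum of 3 white adipocyte markers with a probe set was 1165 to 1200.2 in RKIP, 3541 to 4192 in GRK-Inh and 3601 to 3775 in B6 control hearts, with 2 of 3 lower in RKIP and 0 called in GRK-Inh hearts. Most of this sum was Car3, at 1019 and 1073 in RKIP, 3670 and 3209 in GRK-Inh and 3412 and 3211 in B6 control hearts. The other 2 markers were Adipoq, which also fell in RKIP hearts, and Retn. Of 4 endothelial markers, 1 fell in RKIP and 0 were called in GRK-Inh against control hearts. Their sums were 2684 to 2776 in RKIP, 3413 to 3440 in GRK-Inh and 3088 to 3326 in B6 control hearts. Of the 6 cardiomyocyte markers, 1 fell in RKIP (Actc1, -0.12 ± 0.031, adjusted p = 0.0326) and 0 were called in GRK-Inh against control hearts. The call of Actc1 was lost under 10 of 17 alternatives. Of the 2 macrophage markers that fell in GRK-Inh hearts, Adgre1 (-0.29, adjusted p = 0.0498) lost the call under 15 of 17. The other, Csf1r (-0.46, adjusted p = 0.000131), kept it under all 17. Over all marker lists 14 genes were called in RKIP and 10 in GRK-Inh against control hearts, of which 8 and 4 lost the call when some single array was left out. The lymphocyte markers Cd3e, Cd79a and Cd8a lay below the filter in these hearts. The part of these cells in the values of the clock output factors was not tested.

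For each called member, the genes of most similar pattern were those with the smallest root mean square difference in log2 values centred over the 6 arrays. For Dbp they were Per3 (a difference of 0.059 on the log2 scale, Pearson r = 0.99 over 6 arrays), the methyltransferase gene Inmt (0.084) and the growth arrest gene Gadd45a (0.088), which averaged 810.3 in RKIP, 367 in GRK-Inh and 868 in B6 control hearts. For Nfil3 they were the lymphatic endothelial gene Lyve1 (0.045), the RNA-binding protein gene Rc3h1 (0.052) and the early response gene Ier2 (0.065). Lyve1 averaged 678 in RKIP, 1216 in GRK-Inh and 830.3 in B6 control hearts. For Nr1d1 they were the matrix gene Aspn (0.045), Lynx1 (0.046) and 2900009J06Rik (0.047), and for Nr1d2 the retinaldehyde dehydrogenase gene Aldh1a1 (0.021), Rasa1 (0.026) and Selenoh (0.028). For Bhlhe40 they were Zfp995 (0.022), Gypc (0.023) and Bnc2 (0.030), and for Hlf, with a looser likeness, Gk5 (0.078), Rgma (0.10) and Tle2 (0.10). Of these genes, Gk5, Rgma, Tle2, 2900009J06Rik and Bnc2 passed in no comparison. Tle2 averaged 40.6 in GRK-Inh hearts and 2900009J06Rik 47.5 in RKIP hearts, below the filter signal of about 50.2. These likenesses are descriptions over the same 6 arrays, with no test.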

How the data were processed

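Mouse heart RNA was measured on 6 arrays. The authors deposited an intensity per probe set, computed with GCOS per the submitters' processing notes (version not given in the sources used here), and every array had a 2% trimmed mean of 300.002. Groups came from the sample titles. Genes were named through the platform annotation, and promoters are RefSeq's (GRCm38.p6). Signals were taken as log2(signal + 50). The probe set of highest mean signal stood for each of 18193 genes, and 11254 with a mean log2 of at least 6.65, the median of all non-control probe sets, went into limma 3.58.1 (R 4.3.3) with trended variance, in 1 model over 6 arrays (3 residual and 7.6 prior degrees of freedom), adjusted by Benjamini-Hochberg. The number of arrays limits the precision. The members and lists were chosen with earlier results of these data known. Named genes were the members, called list genes and 3 genes of nearest pattern per called member. Alternatives were other normalizations, offsets, filters, probe sets, variance models, array subsets and a replicate block. Figures used Python 3.11.15 and matplotlib 3.10.9.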

Additional observations from a re-analysis of the deposited data

Results flagged for a closer look

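The lines differed from each other, by the limma test of RKIP over GRK-Inh hearts, in 3 members and in 2 core clock genes. Dbp (0.87), Bhlhe40 (0.42) and Per3 (0.77) were higher and Nfil3 (-0.88) and Arntl (-0.63) lower in the RKIP hearts, as log2 differences. Arntl passed the filter through the groups where it was brighter. The calls of Bhlhe40 and Arntl were lost under alternatives given beside their values, and those of Dbp, Nfil3 and Per3 were kept under all 17. With 2 arrays per group, no array could be tested as an outlier.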

How the results depend on the processing

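Of the 10 called member values, 4 kept their call under all alternatives run (Dbp and Nfil3, each in GRK-Inh against control hearts and between the lines), 6 lost it under at least 1, and 0 changed direction. Of the 11 uncalled values, 2 changed direction, both in RKIP against control hearts. Tef turned negative without RKIP array 1 (-0.059) and without B6 control array 1 (-0.078), with a range of -0.078 to 0.21 when 1 array was left out. Bhlhe40 turned negative without RKIP array 2 (-0.020) and without B6 control array 2 (-0.016), with a range of -0.020 to 0.088. Members called numbered 2 in RKIP against control hearts, against 1 with no filter, with a filter at the 75th percentile and with all probe sets entered singly, 0 with an untrended variance, and 0 to 2 with 1 array left out. In GRK-Inh against control hearts 5 were called, against 2 with that variance and 3 to 5 with 1 array left out. All genes called numbered 297 (RKIP against control hearts), 731 (GRK-Inh against control hearts) and 255 (between the lines) with that variance, against 1219, 1477 and 993, and 617 between the lines with no filter. With 1 array left out they numbered 621 to 1126, 896 to 1483 and 465 to 874, where a lone array was taken to vary like the other groups. Nr1d1 lay below the 75th percentile filter and had no value there. With arrays shifted to one median, 60.0% of the calls in GRK-Inh against control hearts and 34.6% of those between the lines were higher, against 44.6% and 50.7%. Deviations of same-numbered arrays showed little correlation between groups (0.026, -0.030 and -0.035). Such correlations can miss a small shared effect, so a pairing of samples by number was neither shown nor excluded. With the replicate block 1150, 1434 and 905 genes, and 2, 4 and 4 members, were called. The cause of these shifts was not tested. Bhlhe41 was too dim to test.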
